A study of Caenorhabditis elegans with 6 samples.

Results

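The regions described here are the places on the X chromosome of Caenorhabditis elegans that the authors listed as bound by HAM-1::GFP. They were chosen by their chromosome alone, as the rows of the authors' combined list that lie on X. That gave 1816 regions of 8430 in the list, or 21.5%, against 6614 on the 5 autosomes. The lists of the single ChIP replicates, numbered 1, 2 and 3, placed 5804, 5617 and 5837 regions on X, against 24168, 24363 and 23762 on the autosomes. Binding was measured by chromatin immunoprecipitation and sequencing (ChIP-seq) with an antibody against GFP in whole L4 larvae, the last larval stage, grown at 20 °C. Each of the 3 ChIP replicates and the 3 input libraries came from hermaphrodites of strain OP102. This strain has the unc-119 (ed3) mutation and the transgene wgIs102, in which ham-1 is joined to TY1, EGFP and FLAG tags, with unc-119(+) as a rescue gene. Per the labels the line was made by biolistic transformation and had not been outcrossed, and no mutation of the animals' own ham-1 gene is listed. Input libraries were not analysed here. The lists pool all cells of the animal, so more cells with a bound site and more binding per cell cannot be told apart.

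HAM-1 belongs to the winged-helix proteins, which bind DNA, and is known for its role in neuroblasts that divide asymmetrically, giving daughters of different size and fate. The X chromosome of C. elegans differs from the autosomes in its regulation. In hermaphrodites, which carry a pair of X chromosomes as they do of each autosome, the dosage compensation complex binds along both X chromosomes and lowers their transcription. X also carries few genes that are active in the germline. Autosomes have a gene-dense centre flanked by arms of higher recombination, a division that is weaker on X.

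Coordinates are those of the files, on WormBase build WS220. The genes that lie there were not analysed. Strength is given as a place, the number in the name of each region, with 1 the strongest of its list. The deposited score could not rank the strong sites, since 62.6% of the combined X regions (95% Wilson interval 60.4 to 64.8%) and 64.7% of the autosomal ones (63.5 to 65.8%) share its highest value of 4.04. The lists hold no read counts, so depth is unknown. Intervals on shares cover only the error of counting, and regions next to each other need not be independent. X was compared with the autosomes within each replicate list by a two-sided exact sign-flip permutation test over the 3 lists. With 3 lists this exact test cannot go below p = 0.25, so it cannot pass a threshold of 0.05. A p of 0.25 says only that all 3 lists point one way. With Benjamini-Hochberg adjustment over the 13 comparisons made, the smallest exact permutation p became 0.46.

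The 15 strongest combined X regions held places 5 to 32 of the whole list and stood within the first 57 places of every replicate list. The combined list was made from these replicates, so high places there are no separate evidence. The first on X was X:11093723-11094451, at places 5, 5 and 9 for replicates 1, 2 and 3. Second on X was X:6296178-6296932, which stood at places 2, 9 and 10. X:9465474-9466132 stood at places 9, 1 and 7, so that it was the first region of the whole replicate 2 list. These 3 sites all lie in the central part of the chromosome, which was cut into 3 parts of equal length. X:14525375-14526295 in the right part stood at places 7, 4 and 12. X:2996682-2997511 in the left part stood at places 18, 2 and 11.

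The remaining sites of the 15 were spread over the chromosome. X:12362785-12363465 stood at places 6, 14 and 14 and X:13700438-13701095 at places 13, 10 and 15. X:806448-806973, the site nearest the left end, was lower in replicate 3, with place 57 against 12 and 15 in replicates 1 and 2. X:8035944-8036893 stood at places 15, 29 and 19, and X:11937094-11937920 at 20, 19 and 26. The last 5 were X:4208840-4209610, X:15840983-15841450, X:5429258-5429759, X:16056102-16056839 and X:5840909-5841513, at combined places 21 to 32. Of the 15 sites, 5 lay in the left part, 4 in the central part and 6 in the right part. Neighbours among them were 214.7 to 2190 kb apart, with a median of 1215 kb, and 0 of the 15 belonged to a close group of sites as defined below. Of all 1816 combined X regions 229 did, and of the strongest 100 on X 10 did. With shares this low, a count of 0 among 15 says little.

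**Figure D1:**
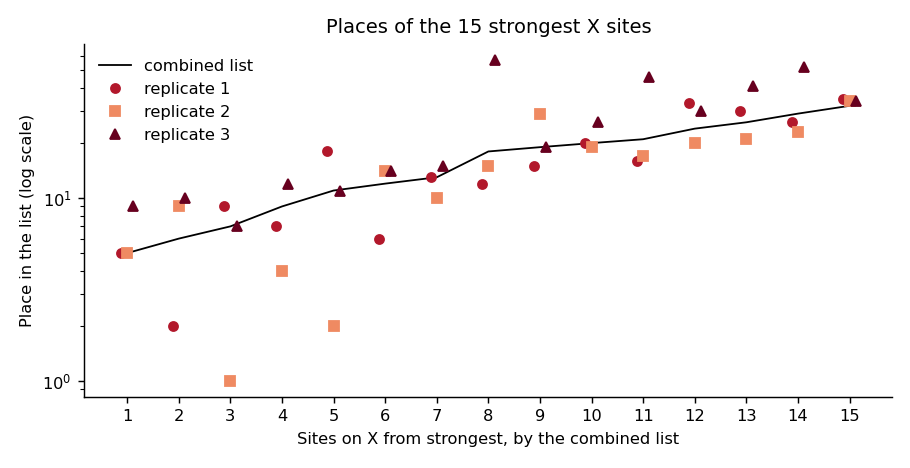
Place in each list (log scale, 1 is the strongest) of the 15 strongest X sites, ordered by the combined list (black line), with a symbol for each replicate. All symbols lie at place 57 or better, and replicate 3 gave its weakest places, 57, 52 and 46, at sites 8, 14 and 11.

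X held a larger share of the strongest regions than of the lists as a whole. Among the first 250 nuclear places it had 73 in each of the 3 replicate lists, or 29.2% (95% Wilson interval 23.9 to 35.1%). X held 19.4%, 18.7% and 19.7% of the whole lists of these replicates. The difference was 9.93 ± 0.50 percentage points (SD, n = 3), in the same direction in 3 of 3 lists (exact sign-flip permutation test, p = 0.25). In the first 100 places X had 38, 30 and 36 regions, and in the first 25 it had 12, 13 and 9. The combined list had 69 X regions among its first 250. Of 60 distinct combined intervals with a place of 100 or better in every replicate list, 22 or 36.7% were on X (95% Wilson interval 25.6 to 49.3%), against 21.3% of all distinct intervals.

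The share on X was highest at the head of the lists. From place 251 to 500 X held 16.8%, 20.0% and 20.8% in replicates 1, 2 and 3, and from 501 to 1000 it held 22.2%, 22.0% and 22.0%. Beyond place 24000 it held 17.9%, 17.1% and 17.8%, below its share of each whole list. X makes up 17.7 of the 100.2 Mb of the nuclear chromosomes, so its share there was near its share of length. Per Mb, X had 4.12 of the first 250 regions in each replicate list, and chromosome III, the autosome with the most, had 3.49, 3.85 and 3.41. Chromosome V had 1.05, 1.05 and 1.10. X was above III in 3 of 3 lists, by little in replicate 2. This order depended on the depth chosen. III was above X in the first 25 places of replicate 3, at 0.58 against 0.51 per Mb. The same held in the first 100 of replicate 2 (1.74 against 1.69) and the first 500 of replicate 1 (6.83 against 6.49). It also held in the first 1000 of replicate 2 (13.4 against 13.1). At each of these depths X was above III in the other replicate lists. Deeper in the lists III led more often. It was above X in the first 2000 of replicate 1 (25.3 against 24.7) and in the first 4000 of replicates 1 and 2 (51.0 against 47.4 and 50.8 against 48.0). In the first 8430 III was above X in 3 of 3 lists. The combined list had X above III in its first 25, 100 and 250, and III above X from the first 500 on.

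**Figure D2:**
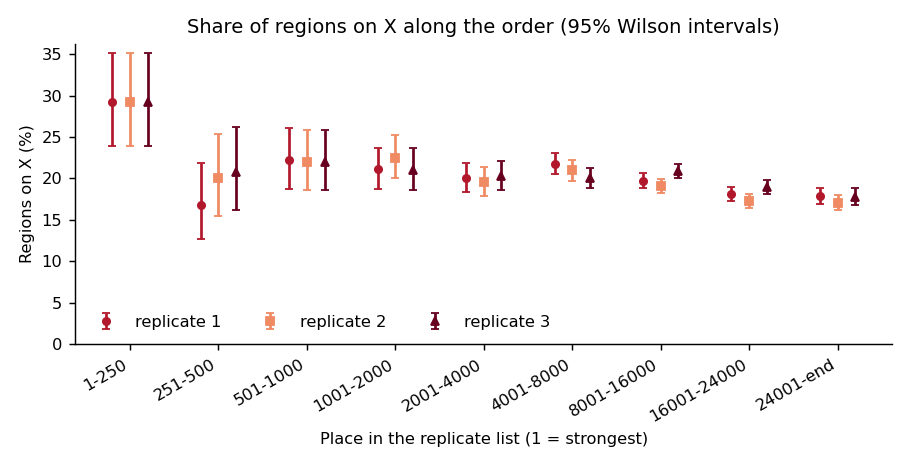
Share of regions on X (%) in successive stretches of each replicate list, from strongest to weakest, with 95% Wilson intervals as bars. All 3 lists start at 29.2% in the first 250 places and end at 17.1 to 17.9%.

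Within X, strong sites were not spread in the same way at every depth of the list. Of the first 100 places of replicates 1, 2 and 3, the central part of X had 9, 8 and 6, the left part 14, 11 and 15, and the right part 15, 11 and 15. The central part was the lowest in 3 of 3 lists. Of the first 1000 places, the right part had 92, 93 and 97, against 67, 69 and 65 in the left part and 67, 71 and 72 in the central part. The stretch from 14 to 15 Mb had 22, 24 and 24 of the first 1000 places in the 3 lists. It was not rich in regions of all strengths, with 274 ± 4.16 regions in the replicate lists (SD, n = 3) and 94 in the combined list. These differences among parts of X were seen in the data and were not tested.

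Regions of all strengths were spread over the 3 parts of X with little difference in density. The combined list had 574 in the left part, 616 in the central part and 626 in the right part, which is 97.2, 104.3 and 106 per Mb. The replicate lists had 323, 316 and 317 per Mb on the left, 331, 320.0 and 347 per Mb in the centre, and 328, 315 and 325 per Mb on the right. The ratio of right to left was 1.01 ± 0.013 (SD, n = 3) and went the other way in replicate 2, at 0.999 (exact sign-flip permutation test, p = 0.50).

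At finer scale X had a sparse left end and dense stretches toward either side of its middle. With X cut into 10 equal steps, numbered from the left, step 1 had 226 ± 9.78 regions per Mb in the replicate lists (SD, n = 3). Step 3 had 403 ± 12.6 and step 8 had 384 ± 4.24, while steps 6 and 7 had 302 ± 9.05 and 289 ± 17.03. The autosomes together ran otherwise, with 349 ± 7.98 in step 6, 292 ± 10.8 in step 3 and 278 ± 1.83 in step 8. In steps of 1 Mb the combined list ranged from 58 regions in the first Mb of X to 138 between 13 and 14 Mb, and had 137 between 4 and 5 Mb. The coefficient of variation over the 17 full steps was 20.8% on X, against 27.1 to 53.2% on the single autosomes. In the replicate lists it was 19.8%, 17.4% and 18.5% on X, and chromosome III was lower, at 16.8%, 15.6% and 17.1%, as was I in replicate 1, at 19.6%.

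**Figure D3:**
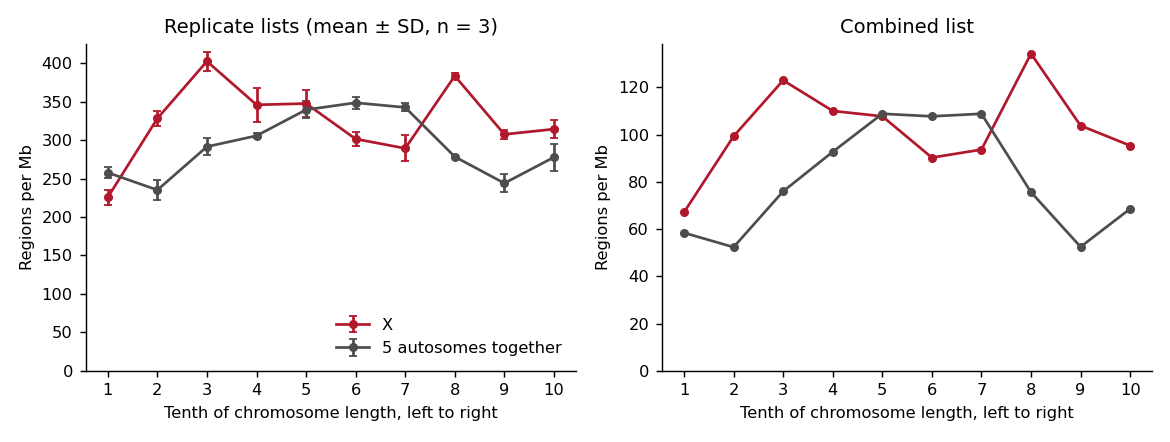
Regions per Mb in 10 equal steps of chromosome length, for X (red) and the 5 autosomes together (grey), as the mean ± SD of the 3 replicate lists (left) and in the combined list (right). In the replicate lists X is highest in steps 3 and 8, at 403 and 384 per Mb, and lowest in step 1, at 226, while the autosomes are highest in step 6, at 349.

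The density of X exceeded that of the autosomes together, by an amount that differed between the lists. Replicates 1, 2 and 3 had 328, 317 and 329 regions per Mb on X, against 293, 295 and 288 per Mb on the autosomes. The ratio was 1.11 ± 0.036 (SD, n = 3), above 1 in 3 of 3 lists (exact sign-flip permutation test, p = 0.25). In the combined list it was 1.28, with 102 against 80.2 per Mb. Replicate lists cut to the length of the combined list gave 1.24 ± 0.017 (SD, n = 3), and their first 3000 places gave 1.28 ± 0.036. The replicate lists hold 30000, 30000 and 29621 regions in all. Densities and the ratio of the whole lists thus depend on where the lists end. With chromosome V, the sparsest autosome, set aside, the ratio was 1.02, 0.98 and 1.06 in replicates 1, 2 and 3, so that replicate 2 fell below 1. In the combined list it was then 1.18. Chromosomes III and I were denser than X in each replicate list.

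The difference between X and the autosomes was seen in the outer parts. There the replicate lists had 326, 316 and 321 regions per Mb on X, against 271, 280.1 and 261 per Mb on the autosomes. The ratio was 1.18 ± 0.052 (SD, n = 3; exact sign-flip permutation test, p = 0.25). In the central part they had 331, 320.0 and 347 per Mb on X, against 336, 326 and 341 on the autosomes, a ratio of 0.995 ± 0.019 (exact sign-flip permutation test, p = 0.75). In the combined list the outer parts had 102 per Mb on X and 67.4 on the autosomes, while the centre had 104.3 on X and 106 on the autosomes. The split into outer and central density was made after the data were seen.

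Seen as a contrast within each chromosome, the ratio of central to outer density on X was 1.02, 1.01 and 1.08 in replicates 1, 2 and 3, against 1.24, 1.16 and 1.31 on the autosomes. The ratio of these ratios was 0.84 ± 0.027 (SD, n = 3; exact sign-flip permutation test, p = 0.25), below 1 in 3 of 3 lists. X had the lowest contrast of the 6 chromosomes in replicates 1 and 3 and in the combined list, and chromosome III was lower in replicate 2, at 0.98. Chromosome III also had denser outer parts than X in the replicate lists, with 387, 397 and 358 per Mb, but not in the combined list, with 97.3 per Mb. With V set aside, the outer ratio of X to the autosomes was 1.08, 1.01 and 1.12 in replicates 1, 2 and 3 and 1.35 in the combined list.

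**Figure D4:**
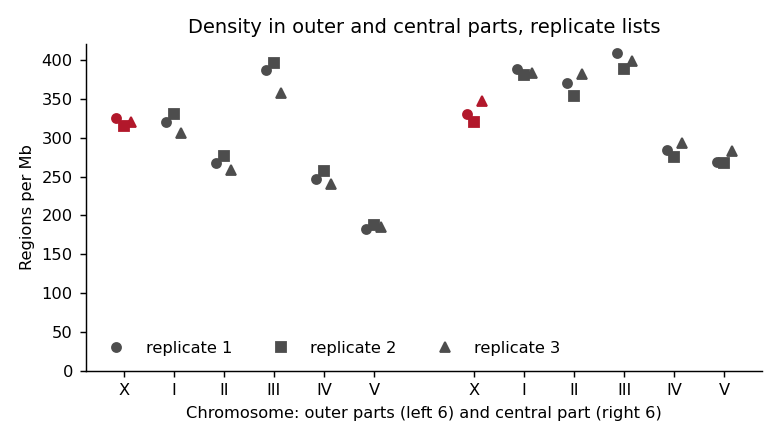
Regions per Mb in the outer parts (left 6 columns) and the central part (right 6 columns) of each chromosome, with a symbol for each replicate list and X in red. In the outer parts X lies near chromosome I and below III. In the centre it lies below I, II and III.

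The 1816 X rows of the combined list were not 1816 different intervals. On X, 42 intervals were listed more than once with different places, which took 88 rows and left 1770 distinct intervals. Repeats made up 2.53% of X rows (95% Wilson interval 1.90 to 3.36%), against 1.32% on the autosomes (1.07 to 1.62%). In the replicate lists repeats made up 0.38%, 0.45% and 0.19% of X rows, against 0.16%, 0.17% and 0.055% on the autosomes, higher on X in 3 of 3 lists (exact sign-flip permutation test, p = 0.25). Of the 15 strongest X sites, 6 were listed more than once. Repeated intervals on X were wide, with a median of 652 bp. How the rows of 1 interval arose is not given in the sources used here.

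Most regions had a single standard width. It was 460, 476 and 444 bp for replicates 1, 2 and 3 and 460 bp for the combined list, and it was the median on X and on the autosomes in all 4 lists. On X 64.8% of combined regions had it, 28.1% were narrower and 7.10% were wider, against 63.9%, 31.3% and 4.84% on the autosomes. Width changed with strength in the same order on X and on the autosomes. On X the median was 563 bp within the first 100 combined places and 419 bp from place 101 to 500. It was 312 bp from 501 to 1000 and 236 bp from 1001 to 2000, and beyond that the usual 460 bp. On the autosomes these medians were 431, 390, 310 and 248 bp, and then also 460 bp. The median thus fell over the first 2000 places and was higher again among weaker regions. Every one of the 15 strongest X sites was wider than usual in the combined list, from 468 to 950 bp, and 12, 12 and 10 of them were so in replicates 1, 2 and 3.

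Wide intervals were more frequent on X. With each interval counted once, those above the usual width made up 0.55%, 0.70% and 0.29% of X intervals in replicates 1, 2 and 3, against 0.28%, 0.24% and 0.072% of autosomal ones. The difference was 0.32 ± 0.13 percentage points (SD, n = 3; exact sign-flip permutation test, p = 0.25), and X had the highest share of the 6 chromosomes in each list. Chromosome III came near in replicate 1, at 0.50%, and I in the combined list, at 4.73% against 5.03% on X. Counts were small in the replicate lists, with 32, 39 and 17 wide intervals on X. In the combined list there were 89 on X, or 5.03% (95% Wilson interval 4.10 to 6.15%), against 242 on the autosomes, or 3.71% (3.28 to 4.19%). This comparison was also chosen after the data were seen.

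The excess of wide intervals on X was largest among the strongest sites. Of the first 100 distinct intervals of replicates 1, 2 and 3, those on X were wider than usual in 51.3%, 58.1% and 33.3% of cases (20 of 39, 18 of 31 and 12 of 36), against 18.0%, 21.7% and 9.38% on the autosomes (11 of 61, 15 of 69 and 6 of 64). From place 101 to 250 the shares were 8.57%, 14.0% and 2.63% on X, against 16.5%, 12.1% and 6.25% on the autosomes, so that X was lower in replicates 1 and 3. Further down, the order differed between lists. From 251 to 500 X was higher in replicates 1 (9.52% against 3.85%) and 2 (6.12% against 5.47%) and lower in replicate 3. From 501 to 1000 it was higher in replicates 2 (2.80% against 1.27%) and 3 (1.82% against 0.26%) and lower in replicate 1. Beyond place 1000 X was again higher in replicates 2 and 3 and lower in replicate 1. In the combined list, 78.4% of X intervals and 36.5% of autosomal ones among the first 100 were wide.

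**Figure D5:**
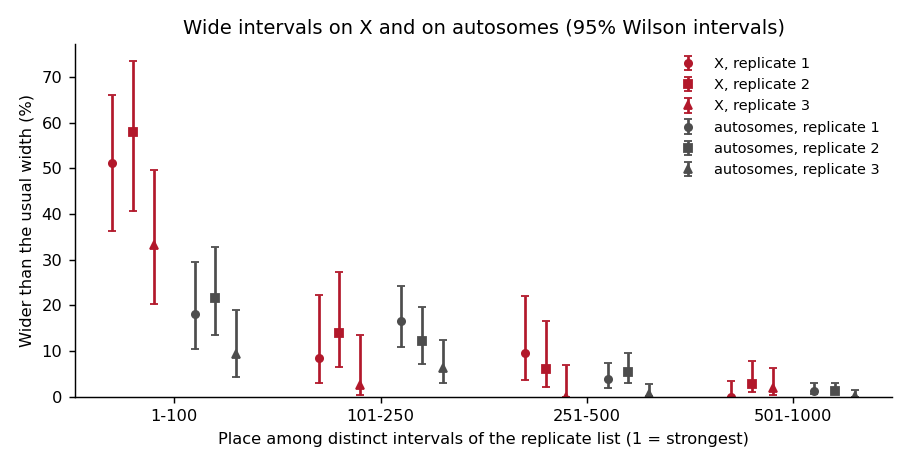
Share of distinct intervals wider than the usual width of their list (%), for X (red, left) and the autosomes (grey, right) in 4 ranges of strength, with a symbol for each replicate and 95% Wilson intervals. In the first 100 places all 3 X values, 33.3 to 58.1%, lie above all 3 autosomal values, 9.38 to 21.7%, and the groups overlap in the other ranges.

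The widest X interval was X:16929322-16931882, at 2561 bp. It was listed in 5 rows, of which the strongest had place 114, and its best places in replicates 1, 2 and 3 were 75, 229 and 69. The next was X:1503650-1505133, at 1484 bp and combined place 1187, with places 688, 826 and 852. The third was X:4147440-4148662, at 1223 bp and combined place 621, with places 338, 716 and 531, and it lies in a close group of sites. Wide X intervals often spanned several regions of a replicate list. Of the 89, 62.9%, 73.0% and 61.8% met at least 2 regions of replicates 1, 2 and 3, against 40.5%, 40.8% and 37.4% of X intervals of the usual width. Among narrower X intervals the shares were 29.7%, 33.3% and 26.7%. On the autosomes 64.9%, 69.01% and 63.6% of wide intervals met at least 2. A wider interval has more room to meet several regions, and the part of this in the result was not tested.

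The spacing of regions on X and on the autosomes differed by less than the spread between the whole replicate lists, but not among strong regions alone. After overlapping regions were merged, X had 1662 separate stretches in the combined list, which covered 703 kb or 3.97% of its length, against 3.08% on the autosomes. The median gap was 3421 bp on X and 3706 bp on the autosomes. In replicates 1, 2 and 3 it was 1002, 1103 and 1238.5 bp on X, against 1017, 1074 and 1192 bp on the autosomes. The difference of 20.2 ± 31.7 bp (SD, n = 3) was smaller than its spread and changed sign between lists (exact sign-flip permutation test, p = 0.50). In the first 3000 places of each list the median gap was shorter on X in 3 of 3 lists, with a difference of -1327 ± 586 bp (SD, n = 3; exact sign-flip permutation test, p = 0.25). Leaving out 1 replicate moved the whole-list difference to between 7.0 bp (without replicate 3) and 37.75 bp (without replicate 1). Gaps of at most 1 kb made up 49.8%, 46.6% and 43.6% of gaps on X, against 49.5%, 47.4% and 44.7% on the autosomes, a difference of -0.55 ± 0.76 percentage points (exact sign-flip permutation test, p = 0.50). It was -0.25 points without replicate 3 and -0.98 points without replicate 1. Gaps of at most 2 kb made up a lower share on X in 3 of 3 lists, with a difference of -0.78 ± 0.58 points (exact sign-flip permutation test, p = 0.25).

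Long empty stretches were rarer on X than on the autosomes together. Gaps above 20 kb made up 15.7% of combined gaps on X and 18.4% on the autosomes. In replicates 1, 2 and 3 they made up 4.04%, 4.36% and 3.03% on X, against 4.48%, 4.52% and 3.98% on the autosomes. Of the windows of 50 kb on X, 40 of 355 held no combined region, or 11.3% (95% Wilson interval 8.38 to 14.98%), against 306 of 1653 on the autosomes, or 18.5% (16.7 to 20.5%). Chromosome III had fewer, at 4.71%, and I had as few, at 11.3%. Chromosomes II and IV had 18.0% and 19.1%, and V, the sparsest, had the most, at 32.7%. In each replicate list III and I also had a lower share of gaps above 20 kb than X. No comparison with V set aside was made. These shares were not tested.

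The longest stretch of X without a combined region ran from X:59378-324046, or 264.7 kb, near the left end. The replicate lists had 13, 15 and 12 weak regions in it, the best at places 7250, 17089 and 7506. The next, X:1627450-1845345 at 217.9 kb, had 3, 1 and 2 replicate regions, the best at 5567, 23289 and 3349. Both lie in or next to the sparse first step of the 10. The third, X:12211036-12350043 at 139.01 kb, had 9, 6 and 8, the best at 2413, 4131 and 3589. The strong site X:12362785-12363465 lies to its right. The first combined region starts 59.3 kb from the left end of the span and the last ends 4.09 kb from the right end.

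The share of X sites in close groups differed from that on the autosomes by less than the spread between lists for groups of 3 or more, but not for groups of 4 or more. A group was a run of at least 3 merged stretches with each gap at most 1 kb. In the combined list X had 59 groups, of which 45 had 3 stretches, 10 had 4 and 4 had more. They held 12.0% of X stretches, against 11.8% on the autosomes. In the replicate lists groups held 49.8%, 47.0% and 41.6% of X stretches, against 49.5%, 46.9% and 44.1% of autosomal ones. The difference was -0.67 ± 1.54 percentage points (SD, n = 3; exact sign-flip permutation test, p = 1.0), with X higher in replicates 1 and 2 and lower in replicate 3. Without replicate 3 it was 0.22 points, and without replicates 1 and 2 in turn it was -1.15 and -1.07 points. With at least 4 stretches to a group it was -1.01 ± 0.86 points, lower on X in 3 of 3 lists (exact sign-flip permutation test, p = 0.25). Along X, 16.4% of combined stretches in the central part were in groups, against 8.17% in the left part and 11.1% in the right part. The replicate lists did not all share that order, with 52.1%, 46.6% and 43.6% in the centre, 49.2%, 47.2% and 40.2% on the left and 48.1%, 47.2% and 40.9% on the right.

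The largest group on X was X:6735440-6744287, with 8 stretches over 8848 bp. No autosomal group of the combined list had more than 6. The replicate lists did not all share that order, since their largest groups had 30, 17 and 20 stretches on X, against 23, 24 and 27 on the autosomes. It held 12 combined regions at places from 181 to 8067, and 14, 12 and 16 regions in replicates 1, 2 and 3. X:11477614-11483004 had 6 stretches, the strongest at place 2562. X:4144147-4148662 and X:11468725-11473664 had 5 each, the strongest at places 621 and 782. A further 10 groups had 4 stretches, of which the leftmost, X:1335741-1339331, had a best place of 3031. Of the 59 groups, which held 229 of the 1816 X regions, 9 had a region within the first 500 places. Of all X regions, 123 stood there. The median place was 4374 for X regions in groups and 4354 for those outside. On the autosomes these medians were 4247 and 4161.5. By the best place of any region that each combined region met in replicates 1, 2 and 3, the order was the other way. The medians on X were then 3338, 3518.5 and 3728 in groups and 4073, 4154 and 4139 outside. On the autosomes they were 3757, 3884.5 and 3500.5 in groups and 4101, 4039 and 4322.5 outside. A region that meets several replicate regions takes the best of their places, and the part of this in the result was not tested.

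The densest window of 50 kb on X was X:11450001-11500000, which contains 2 of the largest groups. It had 21 combined regions in 17 stretches, and 49, 44 and 47 regions in replicates 1, 2 and 3. X:6700001-6750000, with the largest group, had 19 combined regions in 14 stretches and 29, 29 and 34 in the replicate lists. X:15600001-15650000 also had 19, in 17 stretches, with 29, 33 and 32 in the replicate lists. The mean was 5.12 per window on X and 4.001 on the autosomes. The strongest region of these windows stood at place 507, 181 and 105. Across the 355 windows the counts of replicate lists had a Spearman rho of 0.92 for replicates 1 and 2, 0.91 for 1 and 3 and 0.90 for 2 and 3. This is a description across windows of 1 chromosome, without a p.

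Nearly all combined X regions were met by all 3 replicate lists. They numbered 1744, or 96.0% (95% Wilson interval 95.04 to 96.8%), against 6371 or 96.3% of autosomal ones (95.8 to 96.7%). The other 72 on X were each met by 2 lists. Replicate 3 lacked 48 of them, replicate 1 lacked 15 and replicate 2 lacked 9. These 72 were weak, with a median place of 6984.5 and a best place of 1059. Of the X regions of replicate 1 that stood within the first 1000 places of all 3 lists, 0 of 150 was missed by the combined list, which allows a share of up to 2.0%, against 2 of 506 on the autosomes. The combined list was made from these replicates and is much shorter than each of their lists. Neither result is therefore separate evidence of agreement.

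Over the whole replicate lists, X regions were met by both other lists more often. The mean difference was smaller within each range of strength. The share was 61.5%, 63.4% and 59.3% on X in replicates 1, 2 and 3, against 58.0%, 58.6% and 58.4% on the autosomes. The difference was 3.06 ± 2.01 percentage points (SD, n = 3; exact sign-flip permutation test, p = 0.25), positive in 3 of 3 lists, which are not independent since they share partners. It was 1.0 points with lists as long as the combined list. With 1 replicate left out, a region had to be met by only 1 other list, which is a different measure. The difference was then 1.94 points without replicate 3, 2.21 without replicate 2 and 2.33 without replicate 1. With only the first 3000 places of each list the difference in regions met by both others was 2.36 ± 2.03 points. The lists also covered more of X, 13.2%, 13.1% and 13.1% of its length against 11.8%, 12.2% and 11.5% of the autosomes, and the part of this in the result was not tested. The strongest regions did not differ by more than the spread. In the first 1000 places 98.7% ± 1.54 were met by both other lists on X and 98.5% ± 1.12 on the autosomes (SD, n = 3). Between places 3000 and 6000 the share was 89.8% ± 1.37 on X and 90.1% ± 2.38 on the autosomes. Between 6000 and 12000 it was 73.9% ± 2.68 on X and 73.8% ± 1.39 on the autosomes, and between 12000 and 18000 it was 54.5% ± 2.08 on X and 54.1% ± 1.01 on the autosomes. Between 18000 and 24000 it was 42.7% ± 2.63 on X and 40.03% ± 0.65 on the autosomes. From place 24001 on the values were 34.1% ± 1.54 on X and 31.9% ± 1.79 on the autosomes, and in these last 2 ranges replicate 3 went the other way. The combined list met 39.2%, 40.8% and 37.5% of X regions of replicates 1, 2 and 3, against 34.2%, 34.2% and 34.0% of autosomal ones.

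Where a pair of replicate lists held the same X site, its places were related, and Spearman's rho over the matched X regions was 0.72 in all 3 pairs (3265, 3145 and 3053 matched regions). On the autosomes it was 0.73, 0.71 and 0.71. Midpoints of matched regions differed by a median of 73, 77 and 79 bp on X, and by 76, 79 and 82 bp on the autosomes. Among the 123 X regions within the first 500 combined places, the highest replicate place was a median of 1.97 times the lowest, against 2.07 times on the autosomes. The widest spread was at X:5085391-5085849, with places 213, 167 and 1806 in replicates 1, 2 and 3. X:2996682-2997511 and X:9465474-9466132 followed at 9.0 times, which in these top sites is a matter of a few places. Places of neighbouring X regions showed little relation, with a rho of 0.00 over 1815 neighbouring pairs of the combined list, and the autosomes gave values from -0.03 to 0.07.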

How the data were processed

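ChIP-seq of HAM-1::GFP was carried out on whole L4 hermaphrodites, crosslinked with 2% formaldehyde per the labels' protocols. Coordinates are on WormBase WS220, per the file headers, and the deposited source column names SPP, a peak caller, via IDR, a method based on reproducible rank. The aligner, the versions, the thresholds and how the lists were combined are not given in the sources used. The deposited score has no stated unit, and the authors' numbering of regions was used as order. The labels do not say whether the replicates were separate cultures, and their spread may be technical.

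Tables were made with pandas 2.3.3 and scipy 1.17.1 on numpy 2.4.6 under Python 3.11.15, and figures with matplotlib 3.10.9. The highest end in any list stood for chromosome length. Each chromosome was cut into 3 equal parts and regions placed by their midpoint. An overlap of 1 bp or more counted as met. Regions on mitochondrial DNA were not used. The 13 comparisons of X with the autosomes, or within X, used exact sign-flip permutation over the 3 replicate lists, with Benjamini-Hochberg adjustment; 4 of them (outer parts, central part, wide intervals, repeats) were chosen after seeing the data. To compare order, each region was matched to the strongest it overlapped, in both directions. Simulated lists served to test the code. Named regions followed a written rule (15 strongest, 3 widest, 5 largest groups, 3 densest windows, 3 longest gaps, 3 widest spreads of places). Members, lists and rule were chosen with earlier results of these data known, and repeated intervals were counted once for the widest regions, a choice made after seeing them. Sequences and genes at the regions were not used here. Alternatives are described in the closing section.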

Additional observations from a re-analysis of the deposited data

How the results depend on the processing

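Of 124 alternatives over 15 results, 106 kept the direction of the value. These include the 8 for median width, where the difference was 0 throughout and had no direction. The alternatives reuse the same lists, so they are not independent. Of the 118 alternatives for results with a replicate SD, 38 moved the value by more than that SD. The cause was not tested. Because 3 lists cannot reach a p under 0.25, no call could be lost. The alternatives with distinct intervals or without chromosome V, and all those for the outer and central parts, wide intervals and repeats, were chosen after seeing the data. With the combined list in place of the replicate lists, the density ratio was 1.28, that of the outer parts 1.51, the central contrast 0.66, right to left 1.09, the excess on X among the strongest 250 6.06 points, wide intervals 1.32 points and repeats 1.22 points. The difference in median gap was -123.0 bp with replicate lists as long as the combined list, -1327 bp in the first 3000 places, -2.83 bp between midpoints and -285 bp in the combined list. Short gaps gave 1.02 points in the combined list, and groups 0.16 points there and 0.10 points with lists of its length. The density ratio of the central parts was 1.01 after merging and 1.03 with the middle 50% as centre. Recovery of combined regions went to 0.72 points with 50% reciprocal overlap, against -0.29 points. The difference in rho was 0.037 in the strongest 25% and -0.010 with the score, against 0.003. With 1 replicate left out, values ran from 1.10 to 1.13 for the density ratio and 0.98 to 1.001 for the central part. They ran from 7.0 to 37.75 bp for the median gap and -0.98 to -0.25 points for short gaps. Groups gave -1.15 to 0.22 points, and the difference in rho ran from -0.0089 to 0.010. Regions met by the 1 other list then left gave 1.94 to 2.33 points, a different measure from regions met by both others. The excess among the strongest was 15.4 points for the strongest 100, 3.86 for the strongest 1000 and 1.69 by the score, which ties most of these regions. The outer ratio was 1.46 with lists as long as the combined list and 1.51 in the first 3000 places. In these settings the density ratio was 1.24 and 1.28, and the central contrast 0.66 and 0.66. No paired analysis was possible because the shared replicate numbers join ChIP to input, and no input list was used; the comparison of X with autosomes is itself paired within each list. Depth is unknown, so its effect on weak regions could not be examined.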
